A study of Mus musculus with 8 samples.

Results

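The megalin and cubilin endocytic machinery is described here through 10 genes, picked by name from the 55367 genes of the count table: *Lrp2*, *Cubn*, *Amn*, *Dab2*, *Lrpap1*, *Clcn5*, *Ocrl*, *Fcgrt*, *Rab11a*, and *Ehd1*. Bulk RNA-Seq was performed on whole kidneys of 4 *c-Maf* ΔTAM and 4 *c-Maf fl/fl* mice, to learn how loss of the transcription factor c-Maf changes kidney gene expression. All 8 mice were C57BL/6J, were homozygous for floxed *c-Maf*, were treated with tamoxifen (TAM), and carry a labelled age of 8 weeks; the labels do not state whether this is the age at TAM or at sampling. The *c-Maf* ΔTAM mice also carried *CAG-Cre-ER* TM, a tamoxifen-dependent Cre recombinase under a promoter active in nearly all cells, and the control mice carried no Cre, so effects of Cre and of *c-Maf* loss cannot be told apart. Total counts ranged from 16649129 to 22990257 per mouse. Levels are CPM after TMM scaling, and a negative log2 fold change means less RNA in *c-Maf* ΔTAM mice.

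Proximal tubule cells recover filtered albumin, vitamin carriers, and hormones by endocytosis at their luminal membrane. Megalin, a large receptor of the LDL receptor family, and cubilin, which has no membrane span of its own and is held by amnionless, bind these ligands; adaptors then link the receptors to clathrin. In endosomes the ligands are released by acidification and passed on to lysosomes or salvaged, while the receptors return to the surface in recycling vesicles. Inherited loss of single components of this route causes low-molecular-weight proteinuria.

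The targeted gene *Maf* was at 9.04, 34.4, 29.5, and 10.1 CPM for mice 1 to 4 of the *c-Maf* ΔTAM genotype, with 379.1, 341.4, 304.7, and 350.4 CPM for *c-Maf fl/fl* mice 1 to 4. Every *c-Maf* ΔTAM mouse was low and every control high, as the genotype labels state. One protocol label names liver as the RNA source, whereas the other labels name whole kidney. Kidney markers were abundant in every mouse, with *Slc34a1*, the main phosphate transporter of the proximal tubule, between 1478 and 4523 CPM. The hepatocyte list was mixed, with a summed level of 666.5 to 1837 CPM per mouse. *Apob* and *Cyp2e1* made up most of it, at 433.6 to 708.2 and 47.1 to 1395 CPM. *Alb* was between 0.660 and 8.83 CPM, and *Tat* and *Cps1* had means of at most 0.0526 CPM in either genotype; all of these but *Apob*, the most abundant, were singled out after their values were seen.

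All 10 genes passed the filter on low counts among the 20149 tested. Per kilobase of exon, *Lrp2* was the most abundant at 452.9 ± 40.9 RPKM in control mice (SD, n = 4), 5.11 times the next gene. By the mean of all 8 mice, it had rank 58 among the genes tested. *Lrpap1*, *Cubn*, *Fcgrt*, *Amn*, and *Dab2* followed at 88.7 ± 12.4, 87.3 ± 6.33, 84.9 ± 9.68, 70.4 ± 10.5, and 56.9 ± 4.10 RPKM (SD, n = 4 each). Neighbors in this stretch overlapped between mice, so their order is not resolved. *Ehd1* was at 34.2 ± 5.12 RPKM, *Rab11a* and *Clcn5* overlapped at 15.3 ± 0.625 and 14.7 ± 0.457 RPKM, and *Ocrl* was lowest at 2.32 ± 0.429 RPKM (SD, n = 4 each). *Ocrl*, lowest of the 10, had rank 11102 by the same mean of all 8 mice.

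**Figure D1:**
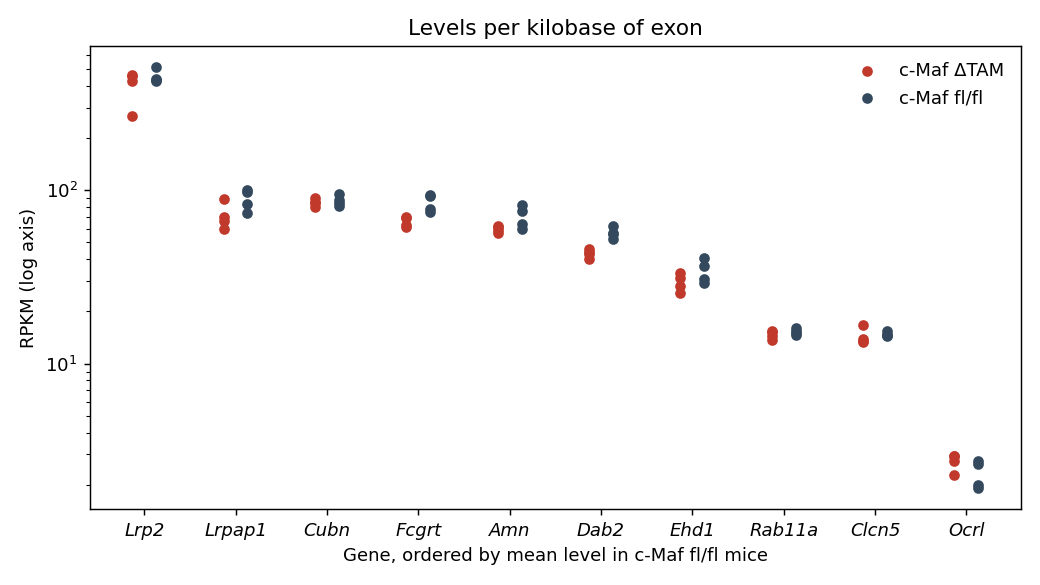
Level of each gene per kilobase of exon (RPKM, log axis) in each of 4 *c-Maf* ΔTAM and 4 *c-Maf fl/fl* mice; each point is 1 mouse. *Lrp2* stands above all other genes and *Ocrl* below them in every mouse, and the genes from *Lrpap1* to *Dab2* form an unresolved stretch.

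Of the 10 genes, 1 passed an adjusted *P* of 0.05 in edgeR's quasi-likelihood test over all genes, *Dab2*, and it was lower in *c-Maf* ΔTAM mice. Over all genes tested, 2.16% passed, 1.58% as lower and 0.586% as higher, and the 10 are too few for a test of this share. None of the 10 was higher past the threshold, 0 were higher and 4 were lower at an unadjusted *P* under 0.05, and 0 were higher with DESeq2 or edgeR's exact test. An unadjusted *P* under 0.05 was found for 2825 of all 20149 genes tested. In 2 of the 10, *Dab2* and *Fcgrt*, the mice of the genotypes did not overlap, which held for 9.79% of all genes. The median log2 fold change of the 10 genes was -0.19, with 9 below zero, against 0.0027 and 49.6% below zero over all genes tested. With quantile normalization, 6 of the 10 were below zero, and the median was -0.08. In the 5 mice with high *Xist*, described below, the median was -0.07.

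**Figure D2:**
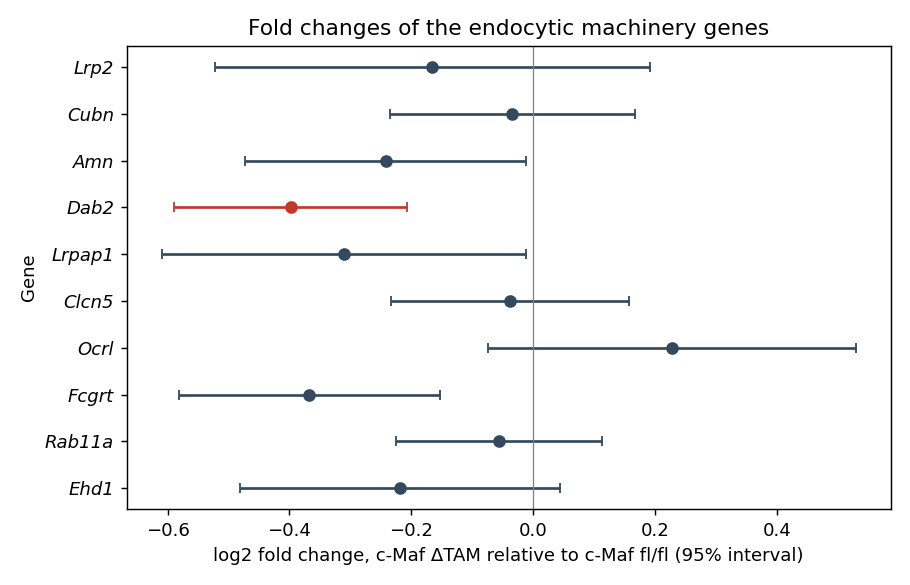
Log2 fold change of each gene (negative where *c-Maf* ΔTAM mice had less, n = 4 per genotype) with its 95% interval from edgeR's quasi-likelihood fit; red marks the gene past an adjusted *P* of 0.05. *Dab2* lies at -0.40, and the intervals of *Lrp2*, *Cubn*, *Clcn5*, *Ocrl*, *Rab11a*, and *Ehd1* include zero.

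*Lrp2* encodes megalin and lies on the minus strand at chr2:69424340-69586065 of GRCm38. It was at 4456, 7693, 7663, and 7168 CPM for mice 1 to 4 of the *c-Maf* ΔTAM genotype, with 7276, 8584, 7244, and 7150 CPM for *c-Maf fl/fl* mice 1 to 4. Only *c-Maf* ΔTAM mouse 1 was below all controls, and the other 3 lay within the control range. The 95% interval of the log2 fold change ran from -0.52 to 0.19 (adjusted *P* = 0.719 in edgeR's quasi-likelihood test), and it includes the -0.40 of *Dab2*, so a difference of that size cannot be told from none here. The coefficient of variation among *c-Maf* ΔTAM mice was 22.9%, against 9.02% among controls, and the log2 fold change of -0.17 was -0.01 without *c-Maf* ΔTAM mouse 1. It was -0.23 without mouse 2 or without mouse 3, -0.28 with *Xist* as a covariate (adjusted *P* = 0.159), and 0.06 with quantile normalization.

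*Cubn*, which encodes cubilin, lies on the same chromosome and strand at chr2:13276338-13491813. Its levels were 1280, 1355, 1261, and 1197 CPM for mice 1 to 4 of the *c-Maf* ΔTAM genotype, with 1204, 1427, 1265, and 1319 CPM for *c-Maf fl/fl* mice 1 to 4. The mice were intermixed, and *c-Maf* ΔTAM mouse 1, low in *Lrp2*, was in the middle of the range here. The coefficients of variation were only 5.10% and 7.25%, and the 95% interval of -0.24 to 0.17 does not reach the -0.40 of *Dab2*. The estimate of -0.03 (adjusted *P* = 0.912 in edgeR's quasi-likelihood test) changed sign with quantile normalization (0.17), with upper-quartile factors (0.01), and without *c-Maf fl/fl* mouse 2 (0.01).

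Amnionless, the membrane anchor of cubilin, is encoded by *Amn* at chr12:111271095-111276426 on the plus strand. It was at 104.0, 108.0, 113.0, and 114.2 CPM for mice 1 to 4 of the *c-Maf* ΔTAM genotype, with 117.8, 109.9, 151.7, and 140.0 CPM for *c-Maf fl/fl* mice 1 to 4. The *c-Maf* ΔTAM values were tightly grouped, and *c-Maf fl/fl* mouse 2 lay among them while mice 3 and 4 stood well above. The estimate was -0.24 on the log2 scale (standard error 0.106, quasi-likelihood test of edgeR, adjusted *P* = 0.330). It was -0.03 in the 5 mice with high *Xist*, described below.

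*Lrpap1* encodes the receptor-associated protein, a chaperone that keeps ligands off megalin in the endoplasmic reticulum, and lies at chr5:35091501-35105766 on the minus strand. It was at 367.6, 275.3, 288.5, and 245.3 CPM for mice 1 to 4 of the *c-Maf* ΔTAM genotype, with 302.3, 344.6, 401.4, and 411.4 CPM for *c-Maf fl/fl* mice 1 to 4. Here 3 *c-Maf* ΔTAM mice were below all controls and mouse 1 was within the control range, the reverse of its place in *Lrp2*. The estimate was -0.31 on the log2 scale (standard error 0.137, adjusted *P* = 0.335), and it was -0.43 without that mouse (quasi-likelihood test of edgeR, adjusted *P* = 0.0923).

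*Dab2* encodes the adaptor that binds the cytoplasmic tail of megalin and recruits clathrin and AP-2. The gene spans chr15:6299788-6440712 on the plus strand. Its levels were 323.9, 336.2, 313.2, and 293.7 CPM for mice 1 to 4 of the *c-Maf* ΔTAM genotype, with 385.6, 408.0, 418.5, and 457.6 CPM for *c-Maf fl/fl* mice 1 to 4. Every *c-Maf* ΔTAM mouse was lower than every control, and mouse 1 was not set apart from the others. *Dab2* was 24.1% lower, with a log2 fold change of -0.40 (standard error 0.0879, 95% interval -0.59 to -0.21, quasi-likelihood test of edgeR, adjusted *P* = 0.0392). With all 70 assignments of the mice, the two-sided exact permutation test gave *P* = 0.0286, the smallest that 4 mice against 4 allow. Any gene whose genotypes do not overlap has this unadjusted value, *Fcgrt* too, so it adds nothing to the order of the mice. The call was near the threshold: the gene was number 372 of the 436 called genes by *P* value. It was lost in 6 of the 8 fits that left out 1 mouse, with adjusted *P* values of 0.0851, 0.135, and 0.0978 without *c-Maf* ΔTAM mice 2, 3, and 4 and of 0.0845, 0.107, and 0.109 without *c-Maf fl/fl* mice 2, 3, and 4, and it was also lost with upper-quartile factors (0.0597), quantile normalization (0.0672), and edgeR's exact test (0.156). The log2 fold change itself stayed between -0.44 and -0.35 when single mice were left out.

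A pair of endosomal proteins follow the adaptor in the route. ClC-5, a chloride-proton exchanger that supports endosomal acidification, is encoded by *Clcn5* at chrX:7153810-7319358 on the minus strand. *Clcn5* was at 189.9, 159.5, 155.3, and 152.7 CPM for mice 1 to 4 of the *c-Maf* ΔTAM genotype, with 164.3, 166.8, 176.3, and 167.4 CPM for *c-Maf fl/fl* mice 1 to 4. Mouse 1 was above all controls and the other 3 *c-Maf* ΔTAM mice were below all controls, so the mean difference was near zero (log2 fold change -0.04, standard error 0.0895, quasi-likelihood test of edgeR, adjusted *P* = 0.896), with 0.01 under upper-quartile factors and 0.04 under quantile normalization. The *Clcn5* estimate was -0.11 without mouse 1, -0.0042 without *c-Maf* ΔTAM mouse 4, and -0.09 among the mice with high *Xist*.

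*Ocrl* encodes an inositol 5-phosphatase of endosomes and the Golgi apparatus and lies at chrX:47912387-47965868 on the plus strand. It was at 26.0, 21.5, 27.7, and 27.9 CPM for mice 1 to 4 of the *c-Maf* ΔTAM genotype, with 26.0, 24.9, 18.1, and 18.8 CPM for *c-Maf fl/fl* mice 1 to 4. *Ocrl* was the 1 gene of the 10 with a positive estimate, 0.23 (standard error 0.138, quasi-likelihood test of edgeR, adjusted *P* = 0.508). The genotypes overlapped, and the low values of *c-Maf fl/fl* mice 3 and 4 made most of the difference, since the estimate was 0.01 among the mice with high *Xist*.

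*Fcgrt* encodes the heavy chain of the neonatal Fc receptor, which rescues albumin and IgG from degradation, and lies at chr7:45092990-45103851 on the minus strand. It was at 147.3, 145.3, 128.7, and 132.2 CPM for mice 1 to 4 of the *c-Maf* ΔTAM genotype, with 164.7, 157.6, 193.8, and 198.0 CPM for *c-Maf fl/fl* mice 1 to 4. Every *c-Maf* ΔTAM mouse was lower than every control. The log2 fold change of -0.37 (standard error 0.0982, 95% interval -0.58 to -0.15) was close in size to that of *Dab2*, but its adjusted *P* of 0.0885 in edgeR's quasi-likelihood test did not pass the threshold. It passed in 3 of 11 other settings, with DESeq2 (0.0267), with all genes of at least 1 count in any mouse (0.0426), and with *Xist* as a covariate (0.0127). It did not pass in the other 8, among them edgeR's exact test (0.270) and the mice with high *Xist* (log2 fold change -0.25, adjusted *P* = 0.135), nor in any of the 8 fits that left out 1 mouse (0.0764 to 0.268). *B2m*, which encodes the light chain of the same receptor as well as that of the class I antigens, averaged 138.2 CPM with the deletion and 110.5 CPM without it (log2 fold change 0.32, standard error 0.0851, adjusted *P* = 0.084), with every *c-Maf* ΔTAM mouse above every control. It was called higher by DESeq2, and it was named after its value had been seen.

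*Rab11a* and *Ehd1* encode a GTPase and an ATPase of recycling endosomes. *Rab11a*, at chr9:64715299-64737758 on the minus strand, had 45.2, 41.0, 46.4, and 43.1 CPM for mice 1 to 4 of the *c-Maf* ΔTAM genotype and 46.2, 43.7, 44.8, and 48.0 CPM for control mice 1 to 4, with a log2 fold change of -0.06 and the smallest standard error of the 10 genes, 0.0774. *Ehd1*, at chr19:6276725-6300096 on the plus strand, had 103.2, 115.5, 123.4, and 94.1 CPM against 114.3, 108.6, 134.7, and 149.9 CPM, with a log2 fold change of -0.22 (standard error 0.120). Both overlapped between genotypes, and neither passed the threshold in edgeR's quasi-likelihood test (adjusted *P* = 0.811 and 0.460). The *Ehd1* estimate was -0.13 without *c-Maf fl/fl* mouse 4, and using only mice with high *Xist* it was -0.01.

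**Figure D3:**
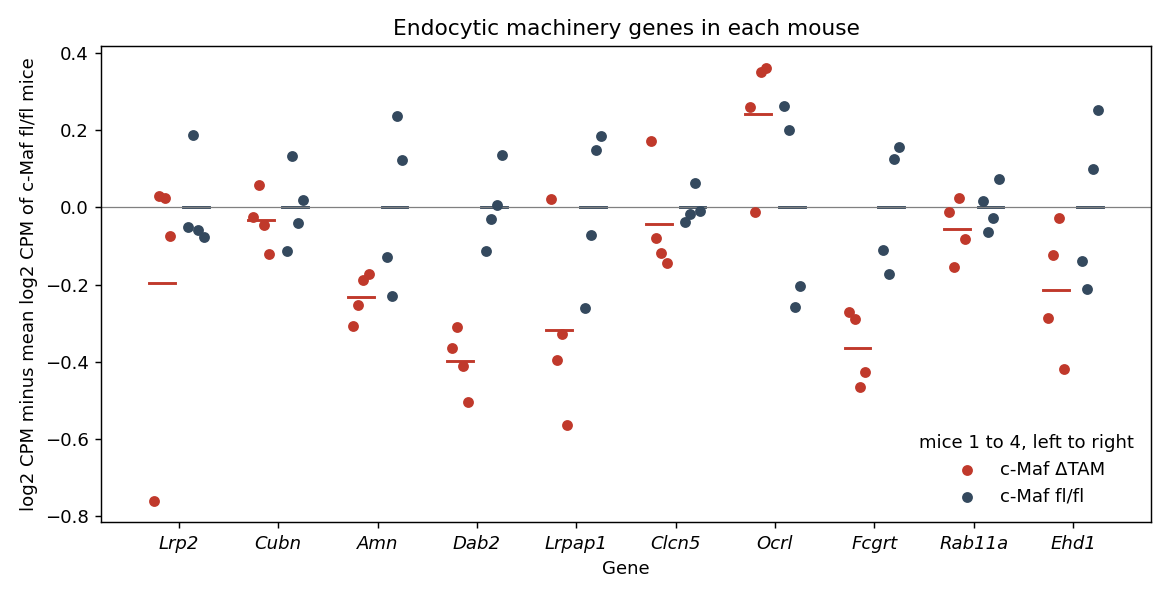
Log2 CPM of each gene in each mouse minus the mean of the 4 *c-Maf fl/fl* mice; points are mice 1 to 4 from left to right in each genotype, and lines are means. *Dab2* and *Fcgrt* separate the genotypes, and *Lrp2* has a single low *c-Maf* ΔTAM mouse at -0.76. In every gene but *Dab2* and *Fcgrt*, the range of the *c-Maf fl/fl* mice is at least as wide as the difference between the means.

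The *c-Maf* ΔTAM mice did not share 1 pattern over the 10 genes. The median of the 10 genes relative to the control mean was -0.15, -0.14, -0.08, and -0.16 for mice 1 to 4 with the deletion, against -0.11, -0.05, 0.04, and 0.10 for control mice 1 to 4 (log2 scale). The genotypes overlapped, since *c-Maf fl/fl* mouse 1, with 8 of the 10 genes below the control mean, was lower than *c-Maf* ΔTAM mouse 3, and the SD of the control medians was 0.0913. Below all 4 controls were 5 genes in mouse 1, 6 in mouse 2, 4 in mouse 3, and 7 in mouse 4, where the shares over all genes tested were 27.2%, 20.8%, 22.8%, and 23.7%. The gene farthest below the control mean was *Lrp2* in mouse 1 (-0.76 on the log2 scale), *Lrpap1* in mice 2 and 4 (-0.40 and -0.56), and *Fcgrt* in mouse 3 (-0.47). Mouse 1 also had the largest share of mitochondrial counts, 32.3%, against 18.7% to 22.1% in the other *c-Maf* ΔTAM mice and 17.1% to 25.5% in the controls. Among the marker lists described below, mouse 1 had the lowest sums for thick ascending limb (4036 CPM, others 5696 to 6911) and distal convoluted tubule (1179, others 1231 to 1970). The same held for podocytes (410.0, others 444.7 to 575.0), endothelium (585.4, others 619.1 to 744.0), and tubular injury (595.4, others 682.5 to 1258). It was not the lowest in the other marker lists. The part of the mitochondrial share or of these sums in the *Lrp2* value was not tested. A fit without mitochondrial and ribosomal RNA genes also called 1 of the 10 genes, and its log2 fold change for *Lrp2* was -0.17, as in the main test. Leaving out these genes rescales the libraries and keeps the *Lrp2* counts as they were, so this fit is no test of that part.

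The balance between partners was compared as log2 ratios of counts within each mouse, which do not depend on library scaling. *Cubn* over *Amn* was 3.62, 3.65, 3.48, and 3.39 for mice 1 to 4 with the deletion, against 3.35, 3.70, 3.06, and 3.24 for control mice 1 to 4. The genotypes overlapped, with a mean difference of 0.20 (two-sided exact permutation test, *P* = 0.257, adjusted *P* = 0.557 over 3 ratios). This difference was 0.11 without *c-Maf fl/fl* mouse 3, 0.32 without *c-Maf fl/fl* mouse 2, and -0.02 when only mice with high *Xist* were used. *Lrp2* over *Dab2* was 3.78, 4.52, 4.61, and 4.61 against 4.24, 4.40, 4.11, and 3.97, and *Lrp2* over *Lrpap1* was 3.60, 4.80, 4.73, and 4.87 against 4.59, 4.64, 4.17, and 4.12. In both ratios *c-Maf* ΔTAM mouse 1 was the lowest of all mice and the other 3 *c-Maf* ΔTAM mice were the highest. The mean differences of 0.20 and 0.12 therefore hid opposite positions and did not pass the exact permutation test (*P* = 0.371 and 0.743, adjusted *P* = 0.557 and 0.743). Without mouse 1, the differences were 0.40 and 0.42, and when only mice with high *Xist* were used they were 0.26 and 0.19. The difference in *Lrp2* over *Dab2* was 0.12 without *c-Maf* ΔTAM mouse 3, and that in *Lrp2* over *Lrpap1* was 0.02 without *c-Maf* ΔTAM mouse 2.

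*Xist*, the RNA expressed from the inactive X chromosome, was at 944.4 to 1008 CPM in 5 mice and at 0.102 to 1.29 CPM in *c-Maf* ΔTAM mouse 1 and *c-Maf fl/fl* mice 3 and 4. The sexes are not given in the labels, and the genotypes were not balanced for this difference. *Dab2*, *Fcgrt*, and *Lrpap1* were lower in *c-Maf* ΔTAM mice without overlap both among the 5 mice with high *Xist* (3 against 2) and among the 3 with low *Xist* (1 against 2). With so few mice this order is common, and it held for 11.1% of all genes tested. *Dab2* was at means of 314.4 against 396.8 CPM with high *Xist* and at 323.9 against 438.0 CPM with low *Xist*. *Fcgrt* was at 135.4 against 161.2 CPM and at 147.3 against 195.9 CPM. *Lrpap1* was at 269.7 against 323.5 CPM and at 367.6 against 406.4 CPM, so that mouse 1 was below its controls when compared only with mice of low *Xist*. *Lrp2*, *Amn*, and *Ehd1* overlapped between genotypes with high *Xist* (means of 7508 against 7930, 111.7 against 113.8, and 111.0 against 111.5 CPM). With low *Xist*, the single *c-Maf* ΔTAM mouse was below its controls in these 3 genes (4456 against 7197, 104.0 against 145.8, and 103.2 against 142.3 CPM), an order shared by 23.9% of all genes tested. The X-linked *Clcn5* and *Ocrl* also differed by stratum, with *Clcn5* below its controls at high *Xist* and above them at low *Xist*. With only 1 *c-Maf* ΔTAM mouse at low *Xist*, no test of such a difference was run. Summed markers of the late proximal tubule (S3) went with the same split, at 3853, 4024, and 4263 CPM in the 3 mice with low *Xist* and 2394 to 2745 CPM in the other 5. In the hepatocyte list, *Cyp2e1* did as well, at 1395, 431.7, and 604.3 CPM against 47.1 to 133.2 CPM. The list's sums, which include it, were 1837, 1197, and 1358 CPM at low *Xist* and 666.5 to 795.8 CPM in the other 5. *Apob* and *Alb* of this list did not follow the split. *Apob* was at 433.6, 690.5, and 708.2 CPM against 511.6 to 686.1 CPM, and *Alb* at 0.660, 2.68, and 3.39 CPM against 1.05 to 8.83 CPM.

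Markers of the early proximal tubule (S1 and S2), the segments richest in this endocytic route, were lower in *c-Maf* ΔTAM mice in 7 of 10 genes and higher in 0 (edgeR's quasi-likelihood test; 8 lower and 0 higher at an unadjusted *P* under 0.05, and 8 lower and 0 higher with DESeq2 and with edgeR's exact test), with a median log2 fold change of -1.23. Their summed level was 3969, 4690, 4310, and 3808 CPM for mice 1 to 4 of the *c-Maf* ΔTAM genotype, with 8310, 9089, 9347, and 9471 CPM for *c-Maf fl/fl* mice 1 to 4, *Slc34a1* was the most abundant, and no marker was at 0. The count was 4 without *c-Maf fl/fl* mouse 1. *Lrp2* and *Cubn*, at -0.17 and -0.03, lay nearer to zero than this median, and the list ran from -4.42 to -0.20. In 8 of its 10 genes the mice of the genotypes did not overlap, which held for 9.79% of all genes tested. The exceptions were *Hnf4a* (-0.20) and *Pdzk1* (-0.35), named after their values were seen, which overlapped between genotypes as both receptors did. The part of the segment markers in the *Dab2* and *Fcgrt* values was not tested. In whole-kidney RNA, fewer cells of a type and less RNA per cell cannot be told apart. For comparison with these marker lists, 2.16% of all genes tested passed in edgeR's quasi-likelihood test, and 14.02% had an unadjusted *P* under 0.05. In the endothelial list, led by *Plvap*, 1 of 9 genes was lower in edgeR's quasi-likelihood test (*Kdr*, log2 fold change -0.37, adjusted *P* = 0.045), as with DESeq2, and 0 were with edgeR's exact test. In the hepatocyte list, led by *Apob*, 1 of 7 was lower (*Ttr*), with 3 lower and 2 higher at an unadjusted *P* under 0.05. There DESeq2 called *Alb* and *Ttr* lower, and edgeR's exact test called *Alb* and *Ttr* lower and *Serpina1a* higher. The lists of the late proximal tubule (7 genes tested, led by *Slc27a2*), thick ascending limb (6, *Umod*), distal convoluted tubule (4, *Slc12a3*), collecting duct (8, *Aqp2*), podocytes (7, *Podxl*), macrophages (9, *Csf1r*), fibroblasts and mural cells (7, *Col1a2*), and tubular injury (7, *Spp1*) had 0 called genes in edgeR's quasi-likelihood test, with 3 macrophage genes higher at an unadjusted *P* under 0.05 and 1 gene each in the late proximal (lower), thick limb (higher), distal convoluted (lower), and injury (higher) lists, 1 called by DESeq2 (*Pvalb*, lower), and 0 by edgeR's exact test.

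The clathrin coat and adaptor genes that work with *Dab2* were tested in 26 genes, of which 1 was lower and 0 were higher (edgeR's quasi-likelihood test; 5 lower and 0 higher at an unadjusted *P* under 0.05, 2 lower with DESeq2, 1 lower with edgeR's exact test), with a median of -0.08. Over all 20149 genes tested, 2.16% passed and 2825 had an unadjusted *P* under 0.05, and the list is too small to set apart from these shares. The lower gene was *Cltb*, which encodes clathrin light chain B. It was at 51.8, 54.9, 57.1, and 52.0 CPM for mice 1 to 4 of the *c-Maf* ΔTAM genotype, with 74.7, 72.6, 77.9, and 90.5 CPM for *c-Maf fl/fl* mice 1 to 4. The genotypes were well apart, and the log2 fold change of -0.55 (standard error 0.0878, adjusted *P* = 0.00655) was larger than that of *Dab2*. *Cltb* did not pass in the fit with a replicate block, described below (adjusted *P* = 0.0859), where the log2 fold change was -0.54. *Epn1*, the gene of this list with the highest level per length and an endocytic adaptor itself, was at 149.4 ± 5.63 and 186.4 ± 18.4 CPM (SD, n = 4 each), with a log2 fold change of -0.32 that did not pass in edgeR's quasi-likelihood test (adjusted *P* = 0.105). It passed with DESeq2 (0.0302), as the second gene called there, and with *Xist* as a covariate (0.0299), and in no other setting or fit without 1 mouse. Among the mice with high *Xist*, the *Epn1* log2 fold change was -0.17.

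At the same share of called genes, 2.16%, lists of the sizes that follow would hold fewer than 1 called gene. Of 23 early endosome and acidification genes, 0 passed edgeR's quasi-likelihood test (3 lower and 1 higher at an unadjusted *P* under 0.05, 0 with DESeq2 or edgeR's exact test), with a median log2 fold change of 0.03; the leading gene per length, *Rab5c*, a GTPase of early endosomes, was at -0.26 (adjusted *P* = 0.168). Of 26 recycling genes, 0 passed (1 lower and 1 higher at an unadjusted *P* under 0.05, 0 with the other tools), with a median of -0.04, led by *Rab11fip3*, an effector of Rab11, at -0.28 (adjusted *P* = 0.373), which was -0.17 without *c-Maf fl/fl* mouse 4, and -0.17 too when only mice with high *Xist* were used. Of 13 tested genes listed with the LDL receptor family, without *Lrp2* but with *Lrp2bp*, which encodes a protein that binds megalin and no receptor, 0 passed (1 higher at an unadjusted *P* under 0.05, 0 with the other tools), with a median of -0.00, led by *Lrp10* at -0.05 (adjusted *P* = 0.823) and at 0.03 with quantile normalization.

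Of 15 tested genes for filtered or tubule-made proteins, most of them ligands of the receptors, 3 were lower and 0 higher (edgeR's quasi-likelihood test; 4 lower and 1 higher at an unadjusted *P* under 0.05, 4 lower and 1 higher, *B2m*, with DESeq2, 4 lower with edgeR's exact test), with a median of -0.20, and *Pth* had no counts in any mouse. *Gpx3*, which encodes the extracellular glutathione peroxidase, was at 3285, 3149, 2918, and 2211 CPM for mice 1 to 4 of the *c-Maf* ΔTAM genotype, with 11021, 11406, 13959, and 14305 CPM for *c-Maf fl/fl* mice 1 to 4 (-2.13 on the log2 scale, standard error 0.151, adjusted *P* = 1.75e-05). *Tcn2*, which encodes the vitamin B12 carrier transcobalamin, a ligand of megalin, was at 595.1, 612.4, 604.4, and 523.1 CPM against 1023, 1115, 1330, and 1287 CPM (-1.03 on the log2 scale, standard error 0.108, adjusted *P* = 0.00031). For both genes the genotypes were fully apart, with lower values after the deletion, and also for *Ttr*, which encodes the carrier of thyroxine and of the retinol-binding protein, at 1.26 ± 1.27 against 41.3 ± 17.6 CPM (SD, n = 4 each; log2 fold change -5.02, adjusted *P* = 0.0152). *Ttr* did not pass without *c-Maf* ΔTAM mouse 3 (-5.05, adjusted *P* = 0.0752) or mouse 4 (-4.76, adjusted *P* = 0.0505), where the fold change stayed large. Nor did *Ttr* pass in the fit with a replicate block, described below (-5.21, adjusted *P* = 0.0635). Of 15 vitamin D and vitamin B12 handling genes, which share *Tcn2* and *Rbp4* with the list before, 1 was lower and 0 higher (7 lower and 0 higher at an unadjusted *P* under 0.05, 4 lower with DESeq2, 3 lower with edgeR's exact test), with a median of -0.30. The gene called lower in the main test was *Tcn2*, already counted in the list before.

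The genes with the profile most like *Lrp2* over the 8 mice, among 9737 genes of at least 10 CPM, were *Slc5a11*, *Eif3m*, and *Prmt7*, with root mean square differences of 0.0690, 0.0693, and 0.0719 on the log2 scale against a spread of 0.263 for *Lrp2* itself. All 3 had their lowest value in *c-Maf* ΔTAM mouse 1, which for *Slc5a11* was 24.3 CPM where the other mice of this genotype had 35.4 to 40.7 CPM. This follows from the choice of genes, since *Lrp2* itself was far lowest in that mouse. The nearest to *Cubn* were *G3bp1*, *Ddx5*, and *Gpn1*, with 0.0360, 0.0398, and 0.0401 against a spread of 0.0795. These measures describe 8 mice and carry no test.

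Reads were counted without regard to strand, and reads on exons of more than 1 gene were left out. Of the 10 genes, *Cubn*, *Dab2*, and *Rab11a* shared exonic bases with another gene, 2.46% with *Gm13270*, 2.87% with *Gm18888*, and 3.58% with *Gm47308*. At most 2.35% of the 36-base sequences of any of the 10 genes occurred in transcripts of another gene, so near-identical copies touched little of these counts. The promoter windows of RefSeq (GRCm38.p6, 250 bases before to 50 after each start) held entries for 9 of the 10 genes, in 11 windows. Neither the half-MARE letters TGCTGAC, found on either strand in 4.67% of all 32851 windows, nor the TRE core TGACTCA (5.20%) or the CRE core TGACGTCA (1.79%) occurred in these 11 windows, which says only that the letters are absent there.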

How the data were processed

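The authors deposited whole-number read counts per gene for the 8 whole-kidney libraries, not normalized, and all 8 count columns were used (0 left unused). Totals ran from 16649129 to 22990257 counts per mouse, and the biological coefficient of variation was 0.203. Per the file header, featureCounts 2.0.1 counted reads on exons of the Ensembl release 102 annotation of GRCm38, each read of a pair separately; the submitters' processing notes name Subread 2.0.2, featureCounts, and edgeR 3.36.0. The paper describes mapping to mm10 in CLC Genomics Workbench for its own values; whether the deposited counts rest on that mapping, or on another aligner, is not given in the sources used here. The library kit was directional, and the counting ignored strand.

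Counts were analyzed in R 4.3.3 with edgeR 4.0.16: filterByExpr, TMM factors on full library totals, and the robust quasi-likelihood test of genotype without covariates, adjusted by Benjamini-Hochberg over 20149 genes at 0.05. Each standard error is the size of the log2 fold change over the square root of F. RPKM used the exon lengths deposited with the counts, and log2 CPM for profile likeness used a prior count of 2. Alternatives used limma 3.58.1, DESeq2 1.42.0, other factors, filters and covariates, and each mouse left out. The main test was first run on simulated data. The planted changes there were larger than those of *Dab2* and *Fcgrt*, so that run does not cover differences of their size. Libraries of 1 genotype differed by more than sampling noise, so none was treated as a copy. Shared sequences came from GENCODE vM21 transcripts. Python 3.11.15 and matplotlib 3.10.9 drew the figures.

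The named genes are the 10 members, *Maf*, *Xist*, the called genes and the leading gene per length of each pathway list, the most abundant gene of each marker list and markers without counts, and the 3 genes nearest in profile to *Lrp2* and *Cubn*; *B2m*, *Alb*, *Tat*, *Cps1*, *Cyp2e1*, *Serpina1a*, *Rbp4*, *Lrp2bp*, *Hnf4a*, *Pdzk1*, *Kdr*, and *Pvalb* were added after their values were seen. The members and lists were chosen with earlier results of these data known.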

Additional observations from a re-analysis of the deposited data

Results flagged for a closer look

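In 28 groups of 4 mice examined (the 10 genes, *Maf*, and 3 ratios, in each genotype), 4 had a mouse whose distance to its nearest neighbor, as a share of the group's range, exceeded the critical value of Dixon's test. Chance flags about 1 in 20 groups, or 1.4 here, and the 4 are not independent, because all of them contain *Lrp2*. For *Lrp2*, the value of 4456 CPM in *c-Maf* ΔTAM mouse 1 lay below the 7168 to 7693 CPM of its group (share 0.838). In controls, the 8584 CPM of *c-Maf fl/fl* mouse 2 lay above the 7150 to 7276 CPM of the rest (0.912). The log2 ratio of *Lrp2* over *Dab2* in *c-Maf* ΔTAM mouse 1 was 3.78 against 4.52 to 4.61 (0.884), and that of *Lrp2* over *Lrpap1* was 3.60 against 4.73 to 4.87 (0.892).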

How the results depend on the processing

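The count of called genes among the 10, 1 in the main test, was 0 with upper-quartile factors, quantile normalization, and edgeR's exact test, 2 with DESeq2, with at least 1 count in any mouse as the filter, and with *Xist* as a covariate, and 0 to 1 with each mouse left out. *Dab2* passed in 7 of 11 other settings and in 2 of 8 fits without 1 mouse, and its estimate stayed below zero throughout. Over all 8 of these fits, passing or not, its adjusted *P* in edgeR's quasi-likelihood test ran from 0.0432 to 0.135. The median log2 fold change of the 10 genes, -0.19, was -0.08 with quantile normalization and -0.07 among the mice with high *Xist*. Estimates that changed sign were *Cubn* (0.0095 with upper-quartile factors, 0.17 with quantile normalization, and -0.0715 without *c-Maf fl/fl* mouse 1 to 0.0116 without mouse 2), *Clcn5* (0.0076 and 0.0386 with the same factors and normalization), *Lrp2* (0.0553) and *Lrp10* (0.0258) with quantile normalization, the ratio of *Cubn* over *Amn* among the mice with high *Xist* (-0.0200), and the ratio of *Lrp2* over *Lrpap1*, which ranged from -0.0015 (without *c-Maf* ΔTAM mouse 4) to 0.42. The cause was not tested.

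Over all genes, 436 passed in the main test, against 886 with DESeq2, 1374 with *Xist* as a covariate, 789 among the mice with high *Xist*, and 239 to 452 with each mouse left out (256 without *c-Maf* ΔTAM mouse 2, 239 without mouse 3, 285 without *c-Maf fl/fl* mouse 3). Of the distinct pathway list genes, 4 passed, against 7 with edgeR's exact test, 10 with DESeq2, 13 with the *Xist* covariate, and 9 among the mice with high *Xist*. With at least 10 counts in every mouse, *Ttr* did not pass the filter, so this alternative gave no value for it. With a replicate block, 129 genes passed, 127 of them among the 436, and 0 of the 10 (*Dab2* -0.40, adjusted *P* = 0.281). The replicate numbers share only a number: correlations of same-numbered mice were -0.373, 0.152, -0.110, and -0.331, and 1 of 4 matched its own number best. Totals ran from 16649129 to 22990257 counts per mouse, with 4 mice per genotype; what limits precision was not tested.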
